A study of Arabidopsis thaliana with 8 samples.

Results

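Blue light was compared with darkness in wild-type Arabidopsis thaliana seedlings of the Col-0 ecotype, by sequencing of polyadenylated RNA. The comparison set 2 libraries from seedlings under blue light (15 µmol per m2 per s) against 2 libraries from seedlings in darkness. Seeds of both groups lay on 1/2 MS medium with 1% sucrose for 3 days at low temperature, then stood in white light for 12 h and then spent 4 days in blue light or in darkness, with a stated growth time of 4.5 days. The dark seedlings had thus seen white light early on and had sugar throughout. The members were the gene models with at least 1 RPKM (reads scaled to the length of the model and the depth of the library) in at least 2 of these 4 libraries, 19535 of the 27416 models in the files. The series also held 2 libraries of a cry1 cry2 mutant in blue light and 2 of a tir1 afb1 afb2 afb3 mutant in darkness. These entered the shared estimate of the spread between replicates and the choice of the genes tested, over which p-values were adjusted. Whole seedlings were used, so fewer cells of a type and less RNA per cell cannot be told apart in any result that follows.

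A seedling in darkness grows a long hypocotyl with a closed apical hook and keeps its plastids as etioplasts, which hold a small store of protochlorophyllide and no working photosystems. Blue light is perceived by the cryptochromes CRY1 and CRY2, by the phototropins and by the ZTL family, and cryptochromes in the light restrain the COP1/SPA ubiquitin ligase and the PIF transcription factors. The hypocotyl then stops elongating, the hook opens, the cotyledons expand and green, and the seedling turns from its stored and supplied carbon to photosynthesis. This switch is called de-etiolation.

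The libraries rested on 19305616 and 20230127 reads in darkness and on 22972716 and 20770468 reads in blue light. Replicates lay close together, with an SD between the 2 libraries of a group of 0.114 in darkness and 0.109 in blue light on the scale of log2 of RPKM + 1. Nothing in the labels tells whether the 2 libraries of a condition are from different plates or batches of seedlings. The p-values therefore reflect only how far these samples differed, and that spread may be technical. All log2 fold changes below compare RPKM + 1 in blue light with RPKM + 1 in darkness, are followed by their standard error (SE), and are positive where blue light was higher. The words rose and fell are kept for genes with a limma p, adjusted over all tested genes, under 0.05. By this rule 75.5% of the members changed, 34.5% rose (6749 genes) and 41.0% fell (8009 genes), and these shares are the background for every count of members below. Changes of at least 2-fold were seen for 11.5% of the members upward and 9.65% downward. Small shifts were therefore common: 43.9% of the called members moved by less than 1.5-fold, and a call alone says little about size.

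**Figure D1:**
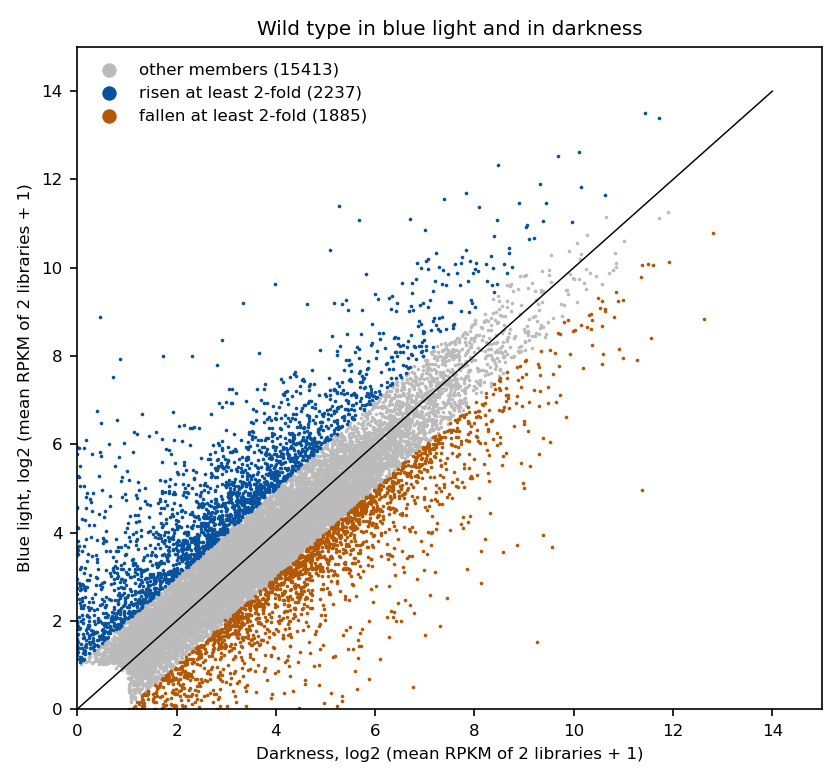
Mean level of each of the 19535 members in darkness (x axis) and in blue light (y axis), both as log2 of mean RPKM + 1 over 2 libraries, with the line of equality. Blue points are the 2237 members risen at least 2-fold and brown points the 1885 fallen at least 2-fold.

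Changes of at least 2-fold were found at all levels of expression. Among the 581 members with a mean of at least 200 RPKM over the 4 libraries, 23.4% rose and 20.3% fell at least 2-fold, against 9.79% and 7.57% of the 6749 members between 2 and 10 RPKM. The 1 added to RPKM shrinks the changes of low genes, and with 0.25 added in its place the shares were 13.0% and 10.1% between 2 and 10 RPKM and 18.3% and 14.6% below 2 RPKM, with the same 23.4% and 20.3% at the highest levels. Changes of at least 8-fold were made by 214 members upward and 126 downward. The reads were also a little more concentrated at the top of the ranking in blue light. There the 10 most abundant models took 6.06% and 6.14% of the reads, against 4.78% and 4.76% in darkness. Lower in the ranking the reads were spread over slightly more models in blue light than in darkness. Of the members, 661 reached the minimum only through the blue libraries and 474 only through the dark libraries. Such genes had to differ by the way they were chosen. A p-value given below for a gene under 1 RPKM in both libraries of a group is therefore no separate support for a difference.

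The photoreceptor genes did not move together. Of 14 photoreceptor genes, all measured, 4 rose, 7 fell and 3 were not called. This mix was near that of all members, of which 34.5% rose and 41.0% fell. The largest change was that of PHYA (AT1G09570), the phytochrome that accumulates in dark-grown seedlings and is lost in light. It stood at 362 and 384 RPKM in darkness and 46.4 and 44.3 RPKM in blue light, a fall of 8.23-fold (log2 fold change -3.01 ± 0.06, adjusted p = 4.3e-12). Both dark libraries lay far above both blue libraries. Its relatives moved less, and in different directions: PHYE (AT4G18130) rose from 3.78 and 4.23 RPKM in darkness to 8.47 and 8.7 RPKM in blue light (0.94 ± 0.10, adjusted p = 7.4e-06), while PHYC (AT5G35840) fell from 13.5 and 14 RPKM to 11.2 and 11 RPKM (-0.29 ± 0.09, adjusted p = 0.014). The PHYC call was lost without the second blue library (adjusted p = 0.064) or the second dark library (adjusted p = 0.065). Neither PHYB (AT2G18790), the main red light receptor of green plants, at 22.1 and 22.9 RPKM in darkness and 23.4 and 23 RPKM in blue light (0.04 ± 0.06, adjusted p = 0.54), nor PHYD (AT4G16250), at 3.62 and 3.97 RPKM in darkness and 4.33 and 4.22 RPKM in blue light (0.14 ± 0.10, adjusted p = 0.21), was called. For PHYD the count model limma-voom did make the call.

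Among the blue light receptors themselves, both nuclear cryptochrome genes were lower in blue light. CRY2 (AT1G04400) had 104 and 107 RPKM in darkness and 62.3 and 63.9 RPKM in blue light (log2 fold change -0.73 ± 0.06, adjusted p = 4.1e-07), and CRY1 (AT4G08920) had 56.4 and 57.6 RPKM and 47 and 45.1 RPKM (-0.3 ± 0.06, adjusted p = 7.7e-04). The groups did not overlap for either gene. CRY3 (AT5G24850), a cryptochrome of the DASH type that is sent to chloroplasts and mitochondria, moved the other way, from 2.78 and 2.76 RPKM in darkness to 16 and 15.9 RPKM in blue light (2.17 ± 0.08, adjusted p = 4.4e-10). The pair of phototropins, kinases for phototropism and chloroplast movement, also parted. PHOT1 (AT3G45780), known for its sensitivity to dim light, fell from 147 and 165 to 78.8 and 84.1 RPKM (-0.93 ± 0.09, adjusted p = 2.3e-06), and PHOT2 (AT5G58140), known for its role in strong light, rose from 13.5 and 13.8 to 39.8 and 39.4 RPKM (1.47 ± 0.06, adjusted p = 2.0e-09). In darkness PHOT1 was thus the more abundant of the pair per length by far, and in blue light the distance was much smaller. The F-box photoreceptors of the ZTL family gave 3 different outcomes. FKF1 (AT1G68050), which acts in day-length timing, rose from 4.54 and 4.23 RPKM in darkness to 14.4 and 12.5 RPKM in blue light (1.42 ± 0.10, adjusted p = 8.7e-08). LKP2 (AT2G18915) fell from 15.7 and 17.3 RPKM in darkness to 11 and 9.61 RPKM in blue light (-0.63 ± 0.08, adjusted p = 2.7e-05). ZTL (AT5G57360) was at 21.4 and 24.7 RPKM in darkness and 25.6 and 25 RPKM in blue light and was not called (0.13 ± 0.07, adjusted p = 0.13), although limma-voom, upper-quartile scaling and the fit without the second dark library each called it higher. The UV-B receptor UVR8 (AT5G63860) stood at 57.4 and 56.7 RPKM in darkness and 49.4 and 50.7 RPKM in blue light (-0.18 ± 0.05, adjusted p = 0.009), a call that was lost under limma-voom and upper-quartile scaling and without the first blue library (adjusted p = 0.054).

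**Figure D2:**
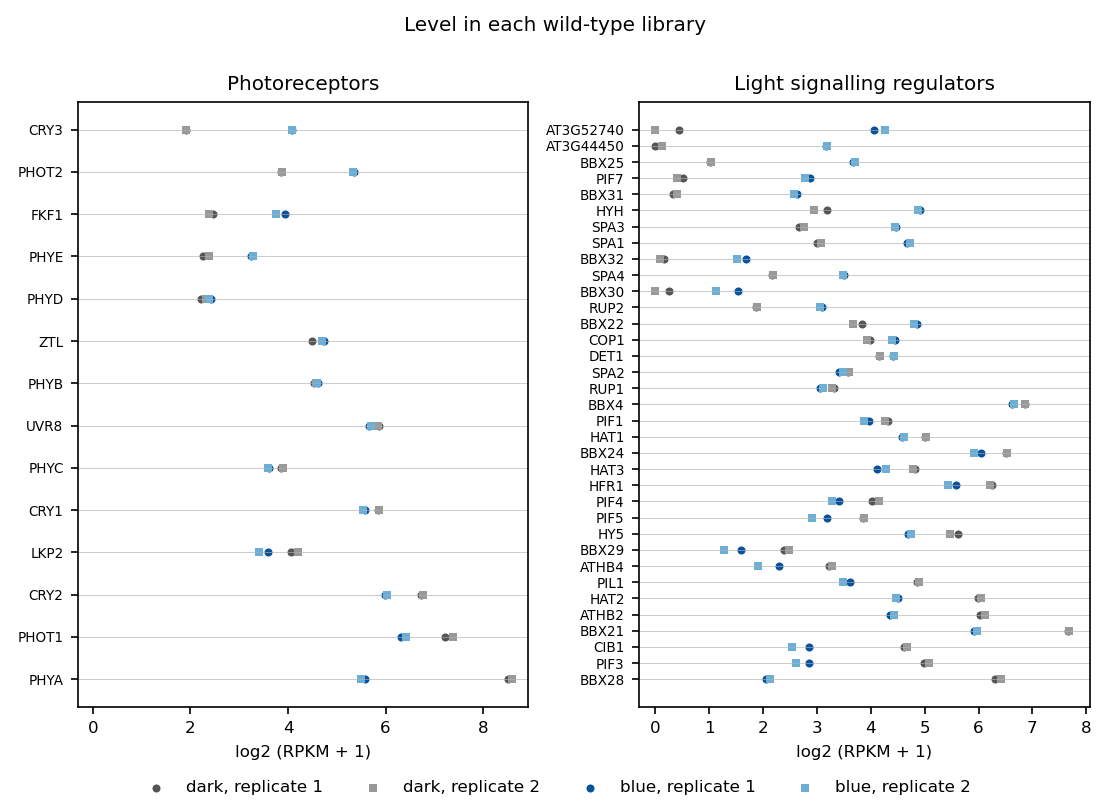
Level of each photoreceptor gene (left) and each light signalling regulator (right) in each of the 4 libraries, as log2 of RPKM + 1, with genes ordered by their log2 fold change. The dark libraries are grey and the blue libraries blue; PHYA and BBX28 lie farthest to the right in darkness relative to blue light within their panels.

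The regulators downstream of the receptors were nearly all changed, in both directions. Of 35 measured light signalling genes 15 rose, 19 fell and 1, SPA2, was not called. The largest fall among them was that of BBX28 (AT4G27310), a B-box protein that interferes with HY5, from 78.4 and 84.4 RPKM in darkness to 3.17 and 3.38 RPKM in blue light (log2 fold change -4.27 ± 0.07, adjusted p = 1.2e-12). PIF3 (AT1G09530), a bHLH factor that holds back greening in darkness, fell from 30.9 and 32.8 RPKM in darkness to 6.23 and 5.14 RPKM in blue light (-2.3 ± 0.09, adjusted p = 5.3e-10). CIB1 (AT4G34530), a bHLH factor that binds CRY2, fell from 23.7 and 24.5 to 6.18 and 4.81 RPKM (-1.96 ± 0.11, adjusted p = 1.4e-08). In contrast to PIF3, PIF7 (AT5G61270), which acts in shade responses, rose from 0.419 and 0.327 RPKM in darkness to 6.27 and 5.84 RPKM in blue light (2.36 ± 0.10, adjusted p = 1.7e-09). The pair of bZIP factors that promote de-etiolation also took opposite directions at the transcript level: HY5 (AT5G11260) fell from 48.2 and 43.2 to 24.8 and 25.9 RPKM (-0.82 ± 0.06, adjusted p = 3.3e-07) and its homologue HYH (AT3G17609) rose from 8.14 and 6.66 to 29.2 and 28.4 RPKM (1.83 ± 0.10, adjusted p = 9.7e-09). HY5 is known to be regulated largely through the stability of its protein, which these data do not measure. The genes for the SPA partners of COP1 rose for SPA1 (AT2G46340) (7.02 and 7.43 RPKM to 24.5 and 25.5 RPKM, 1.66 ± 0.09), SPA3 (AT3G15354) (1.75 ± 0.08) and SPA4 (AT1G53090) (1.31 ± 0.09). The B-box gene BBX25 (AT2G31380) rose from 1.01 and 1.05 RPKM in darkness to 11.6 and 12 RPKM in blue light (2.66 ± 0.08, adjusted p = 1.3e-10). The largest rises of the list belonged to 2 loci, written here by locus because RefSeq gave no matching symbol. AT3G52740 had 0.351 and 0 RPKM in darkness and 15.8 and 18.1 RPKM in blue light (3.94 ± 0.18). AT3G44450 had 0 and 0.0848 RPKM in darkness and 7.99 and 8.09 RPKM in blue light (3.12 ± 0.15).

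Genes of the light reactions of photosynthesis rose for the most part. In the list of nuclear antenna and photosystem genes all 44 were measured, 39 rose and 5 fell, with a median log2 fold change of 1.95 against -0.06 over all members. Together they took 1.2% and 1.18% of the reads in darkness and 4.61% and 4.56% in blue light. The widest change was that of LHCB1.4 (AT2G34430), a major antenna protein of photosystem II, from 51.5 and 48.5 RPKM in darkness to 2339 and 1978 RPKM in blue light (log2 fold change 5.4 ± 0.08, adjusted p = 9.9e-13). Its paralog LHCB1.3 (AT1G29930) was already abundant in darkness, at 2800.4 and 2714 RPKM, and reached 11556 and 11621 RPKM in blue light (2.07 ± 0.11, adjusted p = 1.6e-08), the highest level of any model in those libraries. Members of the LHCB1 family are nearly identical in sequence, so reads may have been shared among them in counting. LHCA1 (AT3G54890), an antenna protein of photosystem I, rose from 64.4 and 60.6 to 709 and 646 RPKM (3.42 ± 0.08), and PSBO2 (AT3G50820), of the oxygen-evolving complex, from 53.5 and 50.8 to 506 and 547 RPKM (3.31 ± 0.08). Each of these genes was higher in both blue libraries than in both dark libraries. Such separation was a condition for naming most genes of a list, so it adds no support.

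The 5 antenna genes that fell were LHCB2.1, LHCB2.2, LHCB2.3, LHCB3 and LHCB4.2. LHCB4.2 (AT3G08940), of a minor antenna of photosystem II, fell from 535 and 560.1 to 121 and 127 RPKM (-2.14 ± 0.06, adjusted p = 1.1e-10), while its paralog LHCB4.1 (AT5G01530) rose from 424 and 434 to 1008 and 1052 RPKM (1.26 ± 0.07, adjusted p = 1.8e-08). Of the LHCB4 pair the LHCB4.2 transcript was thus the higher per length in darkness and the LHCB4.1 transcript in blue light. LHCB2.3 (AT3G27690) fell from 56.9 and 56.2 to 11.9 and 11.5 RPKM (-2.18 ± 0.10) and LHCB3 (AT5G54270) from 190.4 and 199 to 144 and 132 RPKM (-0.5 ± 0.07).

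Electron carriers and the ATP synthase followed the photosystems. Of 20 nuclear genes 19 rose, none fell and PGRL1B was not called, at a median of 2.32. Both genes of ferredoxin-NADP reductase, which makes the NADPH of photosynthesis, rose strongly: FNR2 (AT1G20020) from 23.4 and 24 to 581 and 567 RPKM (log2 fold change 4.54 ± 0.07, adjusted p = 9.8e-13) and FNR1 (AT5G66190) from 44.2 and 41.7 to 526 and 528 RPKM (3.59 ± 0.07, adjusted p = 3.5e-12). PETE2 (AT1G20340), a plastocyanin, rose from 285 and 257 to 2647 and 2630.2 RPKM (3.28 ± 0.07), and its paralog PETE1 (AT1G76100) from 48.9 and 44.5 to 93.6 and 95.1 RPKM (1.0 ± 0.08). ATPD (AT4G09650), the delta subunit of the chloroplast ATP synthase, rose from 79.3 and 79.5 to 634 and 684 RPKM (3.04 ± 0.06).

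Carbon fixation was the list with the highest median, 2.53. All 25 genes of the Calvin cycle and carbonic anhydrase were measured, 22 rose and 3 fell, and their share of the reads went from 1.61% and 1.56% in darkness to 5.55% and 5.74% in blue light. CP12-2 (AT3G62410), a small protein that holds Calvin cycle enzymes in an inactive complex in darkness, had 15.2 and 14.3 RPKM in darkness and 812 and 759 RPKM in blue light, a 53.3-fold rise (log2 fold change 5.64 ± 0.08, adjusted p = 5.5e-13). Its relative CP12-1 (AT2G47400) was far more abundant than CP12-2 in darkness, at 774 and 706 RPKM, and reached 1288 and 1215 RPKM (0.76 ± 0.07, adjusted p = 1.6e-06), while CP12-3 (AT1G76560) fell from 30.0 and 27.4 RPKM in darkness to 15.9 and 14.6 RPKM in blue light (-0.87 ± 0.08, adjusted p = 1.1e-06). The carbonic anhydrases, which interconvert carbon dioxide and bicarbonate, exchanged places. CA1 (AT3G01500) rose from 168 and 164 to 2930.4 and 3133 RPKM (4.18 ± 0.07, adjusted p = 1.2e-12), whereas CA2 (AT5G14740) fell from 3913 and 3847 to 1099.9 and 1131 RPKM (-1.8 ± 0.07, adjusted p = 1.3e-09). CA2 was among the 10 most abundant models in darkness, and CA1 among the 10 in blue light. RBCS1B (AT5G38430), a Rubisco small subunit, rose from 357 and 353 to 4977 and 5276 RPKM (3.85 ± 0.07), and RBCS1A (AT1G67090), the small subunit gene with the most transcript in both groups, from 3522 and 3244 to 10772 and 10758 RPKM (1.67 ± 0.11). The RBCS genes are close copies, with the same uncertainty of shared reads as LHCB1. The aldolase FBA1 (AT2G21330) rose from 42.1 and 41.1 to 591 and 640.3 RPKM (3.85 ± 0.07).

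Photorespiration recovers the carbon of phosphoglycolate, which Rubisco makes when it takes oxygen in place of carbon dioxide, by a path through chloroplast, peroxisome and mitochondrion. All 22 genes of the path were measured and all 22 rose, against 34.5% of all members. Their median was 2.29, and 19 of them rose at least 2-fold. The first enzyme, phosphoglycolate phosphatase PGLP1 (AT5G36700), rose from 12.1 and 12.9 to 148 and 153 RPKM (log2 fold change 3.49 ± 0.07, adjusted p = 4.3e-12). In the peroxisome, glycolate oxidase GOX1 (AT3G14420) rose from 155 and 155 to 1009 and 1048 RPKM (2.72 ± 0.07, adjusted p = 2.0e-11), and the glutamate:glyoxylate aminotransferase GGT1 (AT1G23310) from 113 and 115 to 1082 and 1124 RPKM (3.26 ± 0.06, adjusted p = 3.3e-12). The mitochondrial steps had some of the widest changes. Serine hydroxymethyltransferase SHM1 (AT4G37930) had 56.2 and 53.8 RPKM in darkness and 917 and 941 RPKM in blue light (4.05 ± 0.06, adjusted p = 1.2e-12), and GLDP1 (AT4G33010), the P protein of glycine decarboxylase, had 62.2 and 68.6 and then 609 and 636 RPKM (3.23 ± 0.06, adjusted p = 5.3e-12). GS2 (AT5G35630), the chloroplast glutamine synthetase that refixes the ammonia released there, rose from 216 and 212 to 1190.4 and 1238 RPKM (2.5 ± 0.06, adjusted p = 2.1e-11). In every one of these genes both blue libraries exceeded both dark libraries, which was a condition for naming most of them and adds no support.

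To show what lies next to genes that moved together, the 200 bases before the annotated gene start were read from the RefSeq copy of the genome, build TAIR10.1. The expression files name TAIR10 and hold no coordinates, so the windows were found by locus name. They were searched on both strands for the G-box CACGTG, a site recognised by bHLH and bZIP factors such as PIFs and HY5, for the I-box GATAAG, described in promoters of light-regulated genes, and for ACTCAT, described in the promoter of a proline dehydrogenase gene. A G-box was present in 5.74% of the 26713 nuclear windows and in 6.48% of those of members, in 10 of 44 antenna and photosystem windows (22.7%) and in 3 of 22 photorespiration windows (13.6%). An I-box was present in 9.90% of all windows, in 8 of 44 antenna and photosystem windows (18.2%), and in 0 of 22 photorespiration windows. The ACTCAT letters were in 9.86% of all windows. Among members risen at least 2-fold 7.21% had a G-box and among those fallen at least 2-fold 7.95%. These matches are descriptions of letters in a short window and not evidence of binding. Only risen genes were considered in the photorespiration and antenna lists, and only fallen genes in the starvation and aquaporin lists further below. Windows are shown for the 2 such genes of each list with the largest change that hold a match and no annotated exon. Each is written 5′ to 3′ on the gene's strand with the matches in capitals on either strand.
GGT1, chr1:8272022-8272221, minus strand: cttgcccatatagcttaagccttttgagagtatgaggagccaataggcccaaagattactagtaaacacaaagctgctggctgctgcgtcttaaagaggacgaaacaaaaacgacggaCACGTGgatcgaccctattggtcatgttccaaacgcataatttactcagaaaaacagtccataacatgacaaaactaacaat
GLDP1, chr4:15931423-15931622, minus strand: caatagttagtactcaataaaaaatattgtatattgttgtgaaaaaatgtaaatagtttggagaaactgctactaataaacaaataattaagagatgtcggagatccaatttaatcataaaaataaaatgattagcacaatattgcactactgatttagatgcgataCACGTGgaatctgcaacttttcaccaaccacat
PSAK, chr1:10721983-10722182, plus strand: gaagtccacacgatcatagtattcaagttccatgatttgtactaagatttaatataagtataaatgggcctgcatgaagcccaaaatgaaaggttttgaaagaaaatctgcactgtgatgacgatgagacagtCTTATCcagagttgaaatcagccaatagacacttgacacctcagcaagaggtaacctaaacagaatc
LHCB1.3, chr1:10477685-10477884, plus strand: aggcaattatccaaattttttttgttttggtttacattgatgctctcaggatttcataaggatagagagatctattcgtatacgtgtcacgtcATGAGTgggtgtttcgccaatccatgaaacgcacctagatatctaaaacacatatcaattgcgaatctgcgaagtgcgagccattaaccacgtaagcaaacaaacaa

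Starch genes rose on both the synthesis and the breakdown side. Of 34 genes 33 were measured, 27 rose, 4 fell and 2 were not called, at a median of 1.43. The beta-amylase BAM3 (AT4G17090), which releases maltose from chloroplast starch at night, went from 0.738 and 0.899 RPKM, below the minimum, to 240.2 and 249.7 RPKM (log2 fold change 7.08 ± 0.09, adjusted p = 2.6e-13), the second largest rise among members with a mean of at least 5 RPKM. On the synthesis side APS1 (AT5G48300), the small subunit of ADP-glucose pyrophosphorylase, rose from 17.6 and 20.4 to 133 and 137 RPKM (2.77 ± 0.07, adjusted p = 3.4e-11). The phosphorylases PHS2 (AT3G46970) (7.58 and 6.48 to 80.3 and 78.1 RPKM, 3.32 ± 0.10) and PHS1 (AT3G29320) (10.3 and 11.2 to 55.3 and 56.2 RPKM, 2.27 ± 0.09) rose as well. BAM9 (AT5G18670), a relative of the beta-amylases without known catalytic activity, fell from 33.2 and 38.3 to 22.2 and 23.3 RPKM (-0.63 ± 0.07, adjusted p = 7.4e-06), and APL3 (AT4G39210), a large subunit of ADP-glucose pyrophosphorylase that responds to sugar, from 5.1 and 5.7 to 3.82 and 3.71 RPKM (-0.42 ± 0.10, adjusted p = 0.0022). Levels of these enzymes' transcripts differed widely per length, from a low level for GBSS1 (AT1G32900), the granule-bound synthase, at 4.25 and 3.95 RPKM in darkness and 3.57 and 3.98 RPKM in blue light and not called,, to the high level of BAM3 in blue light.

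Genes for sucrose and sugar transport were divided. Of 17 measured genes 6 rose, 10 fell and SPSA1 was not called. The hexose carrier STP1 (AT1G11260), which takes sugar into cells, fell from 299.7 and 294 RPKM in darkness to 67.5 and 61.2 RPKM in blue light (log2 fold change -2.19 ± 0.06, adjusted p = 2.9e-11), and the sucrose exporters SWEET12 (AT5G23660) and SWEET11 (AT3G48740) fell from 143 and 151 to 52.7 and 50.3 RPKM (-1.49 ± 0.05) and from 331 and 327 to 142 and 136 RPKM (-1.24 ± 0.05). The sucrose synthase SUS4 (AT3G43190), which cleaves sucrose, fell from 6.6 and 6.89 to 1.42 and 1.29 RPKM (-1.72 ± 0.10). Among the risen genes were ATSPS4F (AT4G10120), a sucrose phosphate synthase, from 12.2 and 13.4 to 68.4 and 65.6 RPKM (2.3 ± 0.09), and CFBP (AT1G43670), the cytosolic fructose bisphosphatase of sucrose synthesis, from 35 and 35.2 to 108 and 107 RPKM (1.59 ± 0.06).

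Genes for life without photosynthetic sugar were high in darkness although the medium held sucrose. In the list of sugar starvation, dark-inducible and amino acid breakdown genes 24 were listed and 23 measured, of which 18 fell, 3 rose and 2 were not called, at a median of -1.33. The asparagine synthetase DIN6 (AT3G47340), which stores nitrogen as asparagine in darkness, had 377 and 387 RPKM in darkness and 11.7 and 9.95 RPKM in blue light (log2 fold change -5.02 ± 0.07, adjusted p = 6.4e-13). The path that burns leucine, isoleucine and valine was among the most changed. The branched-chain aminotransferase BCAT2 (AT1G10070) fell from 172 and 173 to 5.06 and 4.4 RPKM (-4.92 ± 0.08, adjusted p = 9.9e-13), isovaleryl-CoA dehydrogenase IVD (AT3G45300) from 112 and 109 to 15.6 and 14.5 RPKM (-2.8 ± 0.06, adjusted p = 6.6e-12), and MCCA (AT1G03090), a subunit of methylcrotonyl-CoA carboxylase, from 152 and 149 to 18 and 17 RPKM (-3.03 ± 0.06, adjusted p = 5.9e-12). LKR (AT4G33150), the first enzyme of lysine breakdown, fell from 104 and 103 to 16.2 and 14.8 RPKM (-2.66 ± 0.06). DIN1 (AT4G35770), also known as a senescence marker, fell from 644 and 608 to 65.1 and 42.6 RPKM (-3.55 ± 0.14), with a visible difference between the blue libraries. The beta-glucosidase DIN2 (AT3G60140) fell from 48.6 and 45.9 to 0.767 and 0.849 RPKM (-4.74 ± 0.07), and BZIP1 (AT5G49450), a transcription factor of energy deprivation, from 53.6 and 53 to 7.44 and 8.17 RPKM (-2.63 ± 0.07).

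The 3 risen genes of the starvation list were TPS1 (AT1G78580), the trehalose 6-phosphate synthase that forms a sugar signal, from 3.23 and 2.9 to 16.1 and 17 RPKM (2.11 ± 0.09, adjusted p = 1.2e-09), BZIP11 (AT4G34590), a factor repressed by sucrose through its translation, from 3.89 and 4.11 to 10.2 and 9.07 RPKM (1.08 ± 0.10, adjusted p = 1.1e-06), and ERD5 (AT3G30775), the proline dehydrogenase, from 87.4 and 87.2 to 137 and 114 RPKM (0.51 ± 0.08, adjusted p = 1.2e-04). Under upper-quartile scaling and under limma-voom the count of risen genes was 5 in place of 3. Other TPS genes, of the class without a known synthase activity, fell, such as TPS11 (AT2G18700) from 65.8 and 65.1 to 13.2 and 12.7 RPKM (-2.25 ± 0.07). An I-box was found in 7 of the 23 windows of this list (30.4%), and ACTCAT in 3 (13.0%). The largest-changing members with a match are shown.
BCAT2, chr1:3287887-3288086, plus strand: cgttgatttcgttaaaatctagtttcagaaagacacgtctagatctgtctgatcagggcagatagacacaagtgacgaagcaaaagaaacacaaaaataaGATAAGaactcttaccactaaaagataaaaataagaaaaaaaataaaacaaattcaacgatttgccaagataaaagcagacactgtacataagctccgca
DIN1, chr4:16944678-16944877, plus strand: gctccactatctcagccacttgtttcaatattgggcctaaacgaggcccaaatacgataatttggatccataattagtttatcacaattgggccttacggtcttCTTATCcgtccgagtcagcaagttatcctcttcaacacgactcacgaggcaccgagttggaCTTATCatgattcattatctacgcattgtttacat

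Autophagy, by which cells digest their own content, followed the starvation genes. Of 16 autophagy and senescence genes 14 were measured, 13 fell, none rose and ATG8D was not called, at a median of -0.89. The ubiquitin-like ATG8F (AT4G16520), which coats the autophagosome, fell from 326 and 302 to 113 and 103 RPKM (log2 fold change -1.53 ± 0.07, adjusted p = 1.7e-09), and ATG8E (AT2G45170) from 148 and 147 to 62.8 and 63.9 RPKM (-1.2 ± 0.05, adjusted p = 2.6e-09). The cargo receptor NBR1 (AT4G24690) fell from 179.7 and 183 to 88.6 and 86.7 RPKM (-1.04 ± 0.05, adjusted p = 4.0e-09). The late senescence marker SAG12 was at 0 reads in all 4 libraries and SAG13 stayed below 0.1 RPKM, so the high autophagy transcripts of darkness were not accompanied by these markers. DIN1, also known as a senescence marker, was however high in darkness, as given above.

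**Figure D3:**
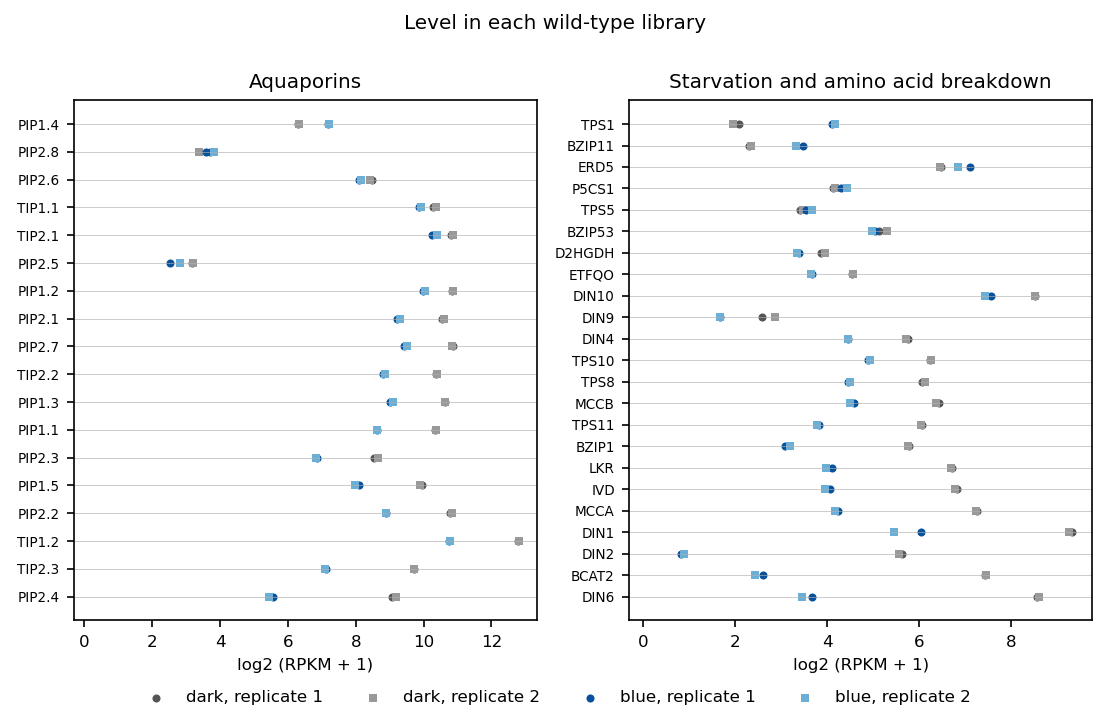
Level of each aquaporin gene (left) and each starvation and amino acid breakdown gene (right) in each of the 4 libraries, as log2 of RPKM + 1, ordered by log2 fold change. Of the 18 aquaporins 16 fell, and the lowest rows of the right panel, DIN6, BCAT2 and DIN2, show the widest distance between the dark (grey) and blue (blue) libraries.

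Plants reduce nitrate and sulfate with electrons that photosynthesis supplies in the light. Of 23 genes 20 were measured, 13 rose, 6 fell and OASA1 was not called. The asparagine synthetase ASN2 (AT5G65010), a paralog of DIN6 of the starvation list, rose from 6.1 and 5.99 RPKM in darkness to 206 and 239.6 RPKM in blue light (log2 fold change 4.98 ± 0.07, adjusted p = 8.6e-13). Nitrate reductase NIA2 (AT1G37130) rose from 143 and 149 to 779 and 872 RPKM (2.49 ± 0.07, adjusted p = 5.3e-11) and nitrite reductase NIR1 (AT2G15620) from 76.8 and 80.0 to 239 and 267 RPKM (1.67 ± 0.06, adjusted p = 6.9e-10). Of the glutamine synthetases, the plastid GS2 rose as given above, while the cytosolic GLN1.1 (AT5G37600) fell from 131 and 133 to 63.4 and 58.9 RPKM (-1.1 ± 0.06, adjusted p = 1.1e-08). Both glutamate dehydrogenase genes, whose enzyme releases ammonia from glutamate when carbon is short, fell: GDH1 (AT5G18170) from 88.7 and 93.6 to 36 and 35.1 RPKM (-1.33 ± 0.05) and GDH2 (AT5G07440) from 340.1 and 342 to 157 and 147 RPKM (-1.16 ± 0.06). In sulfur assimilation the APS reductases rose, led by APR2 (AT1G62180) from 20.9 and 21.4 to 74.6 and 75.1 RPKM (1.77 ± 0.06).

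Most genes of seed oil use were higher in darkness. Of 22 genes of oil breakdown and seed storage 15 were measured, 4 rose, 10 fell and LACS6 was not called. PCK1 (AT4G37870), phosphoenolpyruvate carboxykinase of gluconeogenesis, fell from 696 and 727 to 123 and 121 RPKM (log2 fold change -2.53 ± 0.06, adjusted p = 1.1e-11), and the lipase SDP1 (AT5G04040), which starts oil breakdown, from 30.7 and 30.2 to 14.6 and 15.9 RPKM (-0.95 ± 0.07, adjusted p = 1.3e-07). The glyoxylate cycle enzymes isocitrate lyase and malate synthase differed between the blue libraries themselves. ICL (AT3G21720) stood at 181 and 190.5 RPKM in darkness and 45.3 and 7.94 RPKM in blue light (-3.2 ± 0.51, adjusted p = 1.4e-04), and the log2 fold change was -4.38 without the first blue library and -2.01 without the second. MLS (AT5G03860) stood at 24.1 and 25.8 RPKM in darkness and 12.1 and 6.75 RPKM in blue light (-1.37 ± 0.17, adjusted p = 2.4e-05). In both genes the first blue library was the higher of the pair, as it was for PORA, the protochlorophyllide reductase of etioplasts, at 587 and 631 RPKM in darkness and 3.66 and 0.1 RPKM in blue light, whose log2 fold change of -8.07 ± 0.45 became -9.11 without the first blue library and -7.03 without the second. The 4 risen genes of the list were PMDH2 (AT5G09660), the main peroxisomal malate dehydrogenase, from 139.8 and 135 to 624 and 615 RPKM (2.17 ± 0.06), and at low levels the storage genes OLEO2 (AT5G40420) (2.38 and 1.93 RPKM in darkness and 13 and 9.94 RPKM in blue light), CRA1 (AT5G44120) (0.219 and 0.298 RPKM in darkness and 3.97 and 1.98 RPKM in blue light) and OLEO1 (AT4G25140) (0.228 and 0.272 RPKM in darkness and 2.59 and 1.48 RPKM in blue light). For these storage genes too the first blue library was the higher. Whether the blue libraries differed in seedling age or in ungerminated seed was not tested.

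Carotenoids harvest light and protect chlorophyll, and their synthesis genes rose with the antenna. All 20 were measured, 18 rose and 2 fell, at a median of 1.11. LUT5 (AT1G31800), a hydroxylase on the way to lutein, rose from 3.5 and 4.16 to 62.1 and 62.3 RPKM (log2 fold change 3.71 ± 0.08, adjusted p = 8.4e-12). Phytoene synthase PSY (AT5G17230), the entry step, rose from 35.2 and 34.7 to 102 and 105 RPKM (1.54 ± 0.07, adjusted p = 5.3e-09). VDE1 (AT1G08550), the violaxanthin de-epoxidase that makes zeaxanthin in strong light, rose from 10.2 and 10.9 to 73.1 and 69.7 RPKM (2.65 ± 0.06, adjusted p = 2.1e-11), and CCD4 (AT4G19170), a carotenoid cleavage enzyme, from 2.9 and 2.08 to 23 and 24.5 RPKM (2.84 ± 0.12, adjusted p = 1.3e-09). The paired beta-carotene hydroxylases went apart. BCH1 (AT4G25700) rose from 31 and 30.9 to 66.2 and 69 RPKM (1.1 ± 0.06) and BCH2 (AT5G52570) fell from 8.14 and 7.55 to 1.41 and 0.967 RPKM (-2.02 ± 0.10). DXS (AT4G15560), which feeds the plastid isoprenoid pathway, fell from 140.5 and 145 to 91.7 and 95.4 RPKM (-0.6 ± 0.06), while the next enzyme, DXR (AT5G62790), rose from 23.3 and 22.7 to 66.5 and 66.5 RPKM (1.49 ± 0.07).

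Genes of photoprotection and reactive oxygen were mostly higher in blue light, with 17 of 23 risen, 3 fallen and 3 not called. The plastid peroxiredoxin PRXQ (AT3G26060) rose from 35.7 and 32.8 to 348 and 352 RPKM (log2 fold change 3.32 ± 0.08, adjusted p = 1.2e-11), and tocopherol cyclase VTE1 (AT4G32770), for vitamin E, from 2.4 and 2.46 to 17.1 and 18.2 RPKM (2.44 ± 0.10, adjusted p = 9.0e-10). The one-helix proteins OHP2 (AT1G34000) (32.9 and 32.4 to 178 and 179.8 RPKM, 2.42 ± 0.05) and OHP rose, but the early light-induced proteins of the same superfamily fell: ELIP2 (AT4G14690) from 31.4 and 28.3 to 4.86 and 3.4 RPKM (-2.6 ± 0.11, adjusted p = 1.4e-09) and ELIP1 (AT3G22840) from 23.4 and 23 to 7.68 and 7.3 RPKM (-1.51 ± 0.05, adjusted p = 4.5e-10). The genes of the catalases, which destroy hydrogen peroxide, moved in different directions. CAT3 (AT1G20620) was among the 10 most abundant models in darkness, at 3085 and 3091 RPKM, and fell to 1060.3 and 1073 RPKM (-1.53 ± 0.07). CAT2 (AT4G35090), the catalase of photorespiration, rose from 240.1 and 235 to 482 and 539.9 RPKM (1.1 ± 0.07), and CAT1 (AT1G20630) was at 18 and 18.2 RPKM in darkness and 16.4 and 17.8 RPKM in blue light and not called.

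Every measured gene for plastid transcription and greening control rose, 27 of 27, at a median of 1.29. The widest change was that of CGA1 (AT4G26150), a GATA factor that promotes chloroplast development, from 0.278 and 0.152 RPKM in darkness to 24.6 and 24.8 RPKM in blue light (log2 fold change 4.41 ± 0.11, adjusted p = 2.1e-11). Its paralog GNC (AT5G56860) rose from 15.7 and 14.6 to 35.2 and 35.3 RPKM (1.17 ± 0.07, adjusted p = 3.2e-08). GLK1 (AT2G20570), a factor that switches on photosynthesis genes, rose from 9.66 and 10.1 to 50.9 and 52 RPKM (2.27 ± 0.07, adjusted p = 1.5e-10), and GLK2 (AT5G44190) from 26.7 and 25.3 to 58.2 and 60.1 RPKM (1.16 ± 0.06). All 6 nuclear genes for sigma factors, which guide the bacterial-type plastid RNA polymerase to its promoters, rose, and SIG5 (AT5G24120), known to respond to blue light, changed the most, from 2.8 and 1.97 to 13.3 and 13.1 RPKM (2.08 ± 0.11). Among proteins bound to that polymerase, FLN1 (AT3G54090) rose from 4.83 and 5.39 to 23.5 and 25.1 RPKM (2.05 ± 0.10).

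Plastid import and division moved less uniformly, with 9 of 13 genes risen, 3 fallen and CLPC1 not called. FTSZ1 (AT5G55280), which forms the ring at which plastids divide, rose from 7.26 and 7.19 to 49.5 and 48.7 RPKM (log2 fold change 2.61 ± 0.06, adjusted p = 1.4e-11), and FTSZ2-1 (AT2G36250) from 16.6 and 17 to 53.2 and 54.2 RPKM (1.62 ± 0.05, adjusted p = 2.0e-10). The outer membrane import receptors went the other way: TOC33 (AT1G02280) fell from 108 and 97.9 to 55.1 and 52.2 RPKM (-0.93 ± 0.07, adjusted p = 2.0e-07) and TOC159 (AT4G02510) from 136 and 147 to 109.6 and 113 RPKM (-0.35 ± 0.06, adjusted p = 4.4e-04), while the import channel TOC75-III (AT3G46740) rose from 24.8 and 24.9 to 45.6 and 47.8 RPKM (0.88 ± 0.05, adjusted p = 3.4e-08).

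Transcripts of the plastid genome itself did not follow the nuclear genes as a group. Of 88 plastid-encoded models 27 rose, 10 fell and 51 were not called, at a median of 0.09. Plastid transcripts mostly lack the poly(A) tail used to purify the RNA, so these levels are of the fraction that came through. Their share of the reads was 0.895% and 0.834% in darkness and 1.31% and 1.42% in blue light. RefSeq does not name these loci here. The widest rises were those of ATCG00470, from 709 and 678 to 2741 and 2888 RPKM (2.02 ± 0.11), and ATCG00480, from 515 and 549.8 to 1863 and 2110.0 RPKM (1.9 ± 0.08). The count of 10 fallen models moved both ways with the setting. It was 22 with a replicate block in the 4 wild-type libraries, 4 without the first blue library, 6 without the first dark library, 6 under upper-quartile scaling and 6 without a minimum level. Mitochondrion-encoded models leaned downward. Of 122 models 45 were measured, 24 fell, 2 rose and 19 were not called, at a median of -0.52. They took only 0.0504% and 0.0376% of the reads in darkness and 0.0240% and 0.0213% in blue light. These levels too are of the fraction that came through the purification of polyadenylated RNA. ATMG00030, at 971 and 660.3 RPKM in darkness and 405 and 323 RPKM in blue light (-1.15 ± 0.17), was the most abundant of these models in both groups. Its dark libraries lay well apart. The count of 2 risen was 0 without the second blue library or the second dark library and without a minimum level, 1 under limma-voom and 4 without the first dark library.

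Protein synthesis genes rose together by small amounts. Of 27 cytosolic ribosomal protein genes 26 rose, none fell and RPL10C was not called, at a median of 0.60, and only 1 rose at least 2-fold. That was RPL24A (AT2G36620), from 86.9 and 81.6 to 183 and 178 RPKM (log2 fold change 1.09 ± 0.06, adjusted p = 2.1e-08). RPS6A (AT4G31700), whose protein is a target of growth signalling through TOR, rose from 164 and 157 to 303 and 309.8 RPKM (0.93 ± 0.06, adjusted p = 4.6e-08), and RPL23AA (AT2G39460) from 148 and 138 to 274 and 277 RPKM (0.94 ± 0.05, adjusted p = 2.3e-08). Paralogous ribosomal protein genes are close copies and may share reads.

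Cell division genes were somewhat higher in blue light, with 24 of 35 risen, 3 fallen and 8 not called, at a median of 0.41. Genes of DNA replication led: RNR1 (AT2G21790), the large subunit of ribonucleotide reductase, rose from 11.2 and 13.1 to 31.3 and 32.3 RPKM (log2 fold change 1.33 ± 0.09, adjusted p = 8.2e-08), PCNA1 (AT1G07370), the sliding clamp, from 8.29 and 8.25 to 21.6 and 20.6 RPKM (1.25 ± 0.07, adjusted p = 1.3e-08), and MCM5 (AT2G07690), of the replication helicase, from 4.99 and 5.6 to 12.1 and 12.5 RPKM (1.08 ± 0.09, adjusted p = 3.9e-07). Among the 8 genes not called, the mitotic genes CDKB2.2, CYCA2.3, CYCB1.4 and CYCB2.2 overlapped between the groups. The widest change in the list was a fall, that of SIM (AT5G04470), an inhibitor that turns cells from division to endoreduplication, from 178 and 166 to 41.6 and 43.2 RPKM (-1.99 ± 0.06, adjusted p = 7.2e-11). The related inhibitor SMR1 (AT3G10525) rose from 39.1 and 37.6 to 61.3 and 63.8 RPKM (0.69 ± 0.06, adjusted p = 4.3e-07).

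Of 26 genes of the shoot meristem and leaf growth 21 were measured, 9 rose, 7 fell and 5 were not called. The TCP factors that bring leaf cells to maturity rose: TCP4 (AT3G15030) from 7.86 and 8.64 to 28.6 and 30.1 RPKM (log2 fold change 1.71 ± 0.07, adjusted p = 1.6e-09), TCP10 (AT2G31070) from 3.24 and 3.97 to 12.9 and 13 RPKM (1.6 ± 0.09, adjusted p = 1.9e-08) and TCP3 (AT1G53230) from 17.4 and 21.3 to 49.7 and 51.1 RPKM (1.34 ± 0.08, adjusted p = 3.6e-08). The growth-regulating factor GRF2 (AT4G37740) fell from 15.8 and 17 to 4.7 and 5.35 RPKM (-1.53 ± 0.09, adjusted p = 4.0e-08), and GRF7 (AT5G53660), outside the list but among the 10 largest falls, had 57.8 and 58.3 RPKM in darkness and 0.43 and 0.769 RPKM in blue light (-5.21 ± 0.09). The meristem gene STM (AT1G62360) fell from 8.02 and 6.09 to 4.18 and 3.64 RPKM (-0.71 ± 0.11), and WUS and CLV3 stayed below the minimum level.

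Phenylpropanoids include the flavonoid sunscreens and the units of lignin. Of 33 genes 27 were measured, 16 rose, 9 fell and 2 were not called. Genes of flavonol synthesis had the widest rises: FLS1 (AT5G08640), flavonol synthase, from 0.815 and 1.15 to 24.8 and 26.5 RPKM (log2 fold change 3.75 ± 0.09, adjusted p = 2.1e-11), F3H (AT3G51240) from 1.82 and 1.51 to 24.7 and 23.3 RPKM (3.23 ± 0.09, adjusted p = 7.0e-11), and the flavonol glycosyltransferase UGT78D1 (AT1G30530) from 2.95 and 2.7 to 27.6 and 29.2 RPKM (2.94 ± 0.09, adjusted p = 1.1e-10). Chalcone synthase CHS (AT5G13930), the entry to the flavonoids, rose from 23.1 and 21.8 to 166 and 186 RPKM (2.91 ± 0.07, adjusted p = 1.2e-11). Genes of the anthocyanin branch listed here stayed below the minimum level in both groups. Dihydroflavonol reductase DFR was at 0 and 0.0728 RPKM in darkness and 0.128 and 0.0355 RPKM in blue light, LDOX was at 0.0412 and 0 RPKM in darkness and 0.277 and 0.23 RPKM in blue light, and the anthocyanin regulator TT8 stayed under 0.1 RPKM. Among the fallen genes was the phenylalanine ammonia-lyase PAL4 (AT3G10340), at the entry of the pathway, from 48.5 and 52.2 to 24.7 and 24 RPKM (-1.02 ± 0.06). The lignin alcohol dehydrogenases moved in opposite directions, with CAD5 (AT4G34230) falling from 130.3 and 126 to 55.4 and 54.3 RPKM (-1.21 ± 0.05) and CAD4 (AT3G19450) rising from 53.6 and 49 to 135 and 128 RPKM (1.34 ± 0.06).

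Glucosinolates are sulfur compounds of the cabbage family that release toxic products when myrosinase meets them in a wound. Of 25 genes of their synthesis, of myrosinase and of the ER body 23 were measured, 16 rose, 5 fell and 2 were not called, at a median of 1.52. The widest rises were of genes for aliphatic glucosinolates, made from methionine. MAM1 (AT5G23010), which lengthens the methionine chain, had 0.449 and 0.314 RPKM in darkness and 54.1 and 57.1 RPKM in blue light (log2 fold change 5.36 ± 0.13, adjusted p = 1.6e-11), and BCAT4 (AT3G19710), which starts that path, had 0.114 and 0.0362 RPKM in darkness and 18.5 and 19.1 RPKM in blue light (4.2 ± 0.11, adjusted p = 4.2e-11). The cytochrome P450 CYP83A1 (AT4G13770), which acts on the aliphatic aldoximes, had 0.239 and 0.228 RPKM in darkness and 51.2 and 56 RPKM in blue light (5.47 ± 0.10, adjusted p = 2.7e-12). Their regulator MYB28 (AT5G61420) had 1.09 and 1.04 RPKM in darkness and 35.1 and 35.5 RPKM in blue light (4.14 ± 0.10, adjusted p = 2.0e-11). All of these lay far apart between the groups, with the dark libraries at or near 1 RPKM or below. MAM1, BCAT4 and CYP83A1 were under 1 RPKM in both dark libraries, so they were members only through the blue libraries. Other genes of the list serve the indole glucosinolates, made from tryptophan. CYP79B2 (AT4G39950) rose from 28.5 and 31.7 to 51.7 and 51.5 RPKM (0.76 ± 0.06), CYP79B3 (AT2G22330) was at 53.9 and 55.2 RPKM in darkness and 60.4 and 56.7 RPKM in blue light and not called, and CYP83B1 (AT4G31500), the indole counterpart of CYP83A1, was at 104 and 111 RPKM in darkness and 109 and 109 RPKM in blue light and not called. Their regulator MYB51 (AT1G18570) fell from 12.2 and 13.4 to 5.53 and 5.59 RPKM (-1.08 ± 0.10). The myrosinase TGG1 (AT5G26000), known from guard cells and myrosin cells, rose from 119 and 122 to 1006 and 1026 RPKM (3.07 ± 0.06, adjusted p = 6.8e-12). In the ER body, a store of beta-glucosidase in seedlings, PYK10 (AT3G09260) fell from 3807 and 3830.3 to 2598 and 2338 RPKM (-0.63 ± 0.09, adjusted p = 5.9e-05) while its relative BGLU18 (AT1G52400) rose from 0.757 and 0.671 to 12.4 and 14.4 RPKM (3.07 ± 0.13, adjusted p = 2.1e-09).

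**Figure D4:**
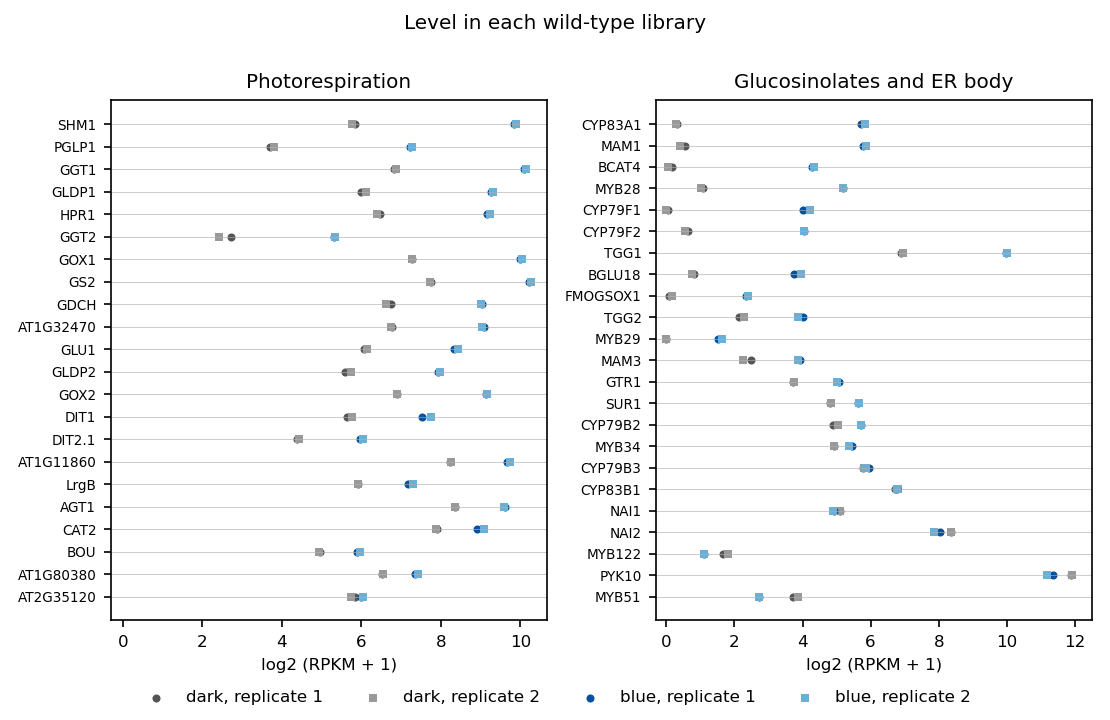
Level of each photorespiration gene (left) and each glucosinolate or ER body gene (right) in each of the 4 libraries, as log2 of RPKM + 1, ordered by log2 fold change. The dark libraries are grey and the blue libraries blue. All 22 photorespiration genes rose, against 34.5% of all members, and CYP83A1, MAM1, BCAT4 and MYB28 lie near the left edge in darkness.

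Some jasmonate synthesis genes rose steeply while several response genes fell. Of 27 jasmonate and defence genes 21 were measured, 8 rose, 11 fell and 2 were not called. The plastid lipoxygenase LOX2 (AT3G45140), an early step of synthesis, had 0.0365 and 0 RPKM in darkness and 52.6 and 67 RPKM in blue light, and allene oxide synthase AOS (AT5G42650) rose from 18.8 and 19.9 to 66.6 and 69.9 RPKM (1.77 ± 0.06, adjusted p = 3.5e-10). Allene oxide cyclase has 4 genes, of which AOC2 had the wide rise (0.264 and 0.353 to 103 and 110.4 RPKM, 6.37 ± 0.08), AOC1 (AT3G25760) rose (6.27 and 6.73 to 20.9 and 18.3 RPKM, 1.45 ± 0.09), AOC3 was not called and AOC4 (AT1G13280) fell (46 and 48.1 to 23.5 and 21.4 RPKM, -1.04 ± 0.06). The response regulator MYC2 (AT1G32640) fell from 62.9 and 69.4 to 28.7 and 28.5 RPKM (-1.18 ± 0.06, adjusted p = 7.8e-09). JAZ repressors, which are induced by the hormone, fell for JAZ1, JAZ2, JAZ3, JAZ7, JAZ10 and JAZ12, with JAZ1 (AT1G19180) from 21.7 and 23.3 to 11.5 and 12.9 RPKM (-0.83 ± 0.07, adjusted p = 9.5e-07), and rose for JAZ6 and JAZ9 (AT1G70700) (10.1 and 12.1 to 27.8 and 31.7 RPKM, 1.35 ± 0.10). The JAZ2 call, at -0.17 ± 0.06, was lost under limma-voom and upper-quartile scaling, and without the first blue or the first dark library (adjusted p = 0.22 and 0.14). The salicylate and ethylene defence markers PR1, PR2, PR5 and PDF1.2 stayed below the minimum level, so they gave no result.

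Abscisic acid, the hormone of drought and seed dormancy, had its genes mostly higher in darkness. Of 18 genes 16 were measured, 3 rose and 13 fell, at a median of -1.08. The transcription factor ABF3 (AT4G34000) fell from 98.8 and 99.2 to 23.5 and 24.7 RPKM (log2 fold change -1.99 ± 0.06, adjusted p = 1.1e-10), ABI5 (AT2G36270) from 9.22 and 10.2 to 3.26 and 3.16 RPKM (-1.34 ± 0.08, adjusted p = 5.1e-08), and the phosphatase ABI1 (AT4G26080), a brake on the pathway that the hormone itself induces, from 90.5 and 90.2 to 31 and 30.2 RPKM (-1.53 ± 0.07, adjusted p = 1.7e-09). The response genes gave no single direction: RD29B (AT5G52300) fell from 23.3 and 22.8 to 8.26 and 7.04 RPKM (-1.48 ± 0.09) and RD29A (AT5G52310) rose from 29 and 32.7 to 61.6 and 71.6 RPKM (1.08 ± 0.10). Of 20 cytokinin genes 17 were measured, 3 rose, 12 fell and 2 were not called, at a median of -0.36. The cytokinin oxidase CKX5 (AT1G75450), which degrades the hormone, fell from 17.9 and 18.2 to 4.8 and 4.21 RPKM (-1.79 ± 0.08, adjusted p = 3.2e-09). Among type-A response regulators, ARR5 (AT3G48100) fell from 37.4 and 35.8 to 16.9 and 14.9 RPKM (-1.16 ± 0.08) and ARR7 (AT1G19050) rose from 10.1 and 10.5 to 19.3 and 18.3 RPKM (0.81 ± 0.07).

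Gibberellins and brassinosteroids promote growth of the hypocotyl, and only transcripts of their genes were measured here. Of 16 gibberellin genes 15 were measured, 13 fell, 1 rose and RGL2 was not called. The synthesis genes GA20OX1 (AT4G25420), at 7.88 and 7.68 RPKM in darkness and 0.374 and 0.301 RPKM in blue light (log2 fold change -2.72 ± 0.10, adjusted p = 4.6e-10), and GA3OX1 (AT1G15550), at 18.2 and 19.4 and 2.22 and 1.99 RPKM (-2.67 ± 0.09, adjusted p = 3.4e-10), fell, and so did the receptor gene GID1C (AT5G27320), from 23 and 24.6 to 11.3 and 11.3 RPKM (-1.01 ± 0.06). The inactivating oxidase GA2OX6 (AT1G02400) fell with them, from 19.5 and 20.2 to 4.42 and 4.31 RPKM (-1.96 ± 0.06). Of 11 brassinosteroid genes 10 fell and BES1 rose, at a median of -0.72, and the synthesis enzyme ROT3 (AT4G36380) changed the most, from 39.5 and 36.2 to 14.9 and 13.2 RPKM (-1.37 ± 0.09). The apical hook and ethylene list had the lowest median of all, -2.20, with all 10 measured genes of 11 fallen. HLS1 (AT4G37580), needed to form the hook, fell from 18.7 and 22.5 to 2.48 and 2.35 RPKM (-2.66 ± 0.10, adjusted p = 8.5e-10), and the ethylene synthesis gene ACS5 (AT5G65800) from 16.8 and 18.7 to 1.32 and 1.0 RPKM (-3.12 ± 0.13, adjusted p = 1.3e-09). EBF2 (AT5G25350), an F-box gene induced by ethylene, fell from 141 and 151 to 25.5 and 26.4 RPKM (-2.44 ± 0.06, adjusted p = 2.4e-11), and the receptor ETR2 (AT3G23150), also ethylene-induced, from 17.2 and 18.5 to 2.35 and 2.1 RPKM (-2.55 ± 0.09, adjusted p = 5.5e-10).

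Aquaporins, the water channels that carry water into expanding cells, fell broadly from very high levels. All 18 were measured, 16 fell, PIP1.4 (AT4G00430) rose and PIP2.8 was not called, at a median of -1.47. Together they took 2.92% and 2.99% of all reads in darkness and 1.08% and 1.12% in blue light. At the vacuole, TIP1.2 (AT3G26520), the most abundant model of all in the dark libraries, fell from 7022 and 7248 to 1736 and 1769 RPKM (log2 fold change -2.02 ± 0.09, adjusted p = 3.5e-09), and TIP2.3 (AT5G47450) fell from 846 and 847 to 138 and 136 RPKM (-2.62 ± 0.05, adjusted p = 5.3e-12). At the plasma membrane, PIP2.4 (AT5G60660) fell from 531 and 576 to 46.7 and 42.8 RPKM (-3.6 ± 0.08, adjusted p = 1.5e-11), PIP2.2 (AT2G37170) from 1758 and 1845 to 470.2 and 470.2 RPKM (-1.94 ± 0.07, adjusted p = 3.9e-10) and PIP1.5 (AT4G23400) from 988 and 952 to 274 and 250.5 RPKM (-1.89 ± 0.08, adjusted p = 2.6e-09). PIP1.4 rose from 77 and 79 to 144 and 147 RPKM (0.89 ± 0.05, adjusted p = 1.6e-08). PIP2.8, at 11.9 and 9.42 RPKM in darkness and 11 and 13.2 RPKM in blue light, overlapped between the groups, and was called higher without the first dark library. PIP genes are similar to each other, and reads may have been shared. No G-box was found in the 18 aquaporin windows, an I-box in 3 (16.7%) and ACTCAT in 2 (11.1%), and the largest-changing genes with a match are shown.
PIP2.4, chr5:24377207-24377406, minus strand: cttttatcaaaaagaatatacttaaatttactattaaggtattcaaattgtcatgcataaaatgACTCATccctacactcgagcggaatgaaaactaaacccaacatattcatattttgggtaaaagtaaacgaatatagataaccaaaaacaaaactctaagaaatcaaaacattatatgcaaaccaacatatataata
TIP2.3, chr5:19249623-19249822, minus strand: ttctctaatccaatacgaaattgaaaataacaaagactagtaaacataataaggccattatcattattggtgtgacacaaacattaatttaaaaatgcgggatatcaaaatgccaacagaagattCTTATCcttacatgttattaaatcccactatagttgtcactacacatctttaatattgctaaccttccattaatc

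Cellulose synthases, which spin the main wall polymer, run along tracks of microtubules. The median of the 11 cellulose synthesis genes was -0.21, with 8 fallen and 3 risen. CESA5 (AT5G09870) rose from 14.2 and 14.8 to 42.7 and 44 RPKM (log2 fold change 1.52 ± 0.07, adjusted p = 5.0e-09), and the endoglucanase KOR1 (AT5G49720) fell from 391 and 394 to 236 and 231 RPKM (-0.75 ± 0.06, adjusted p = 2.1e-07). The count of 8 fallen was 4 under upper-quartile scaling and 4 without the second dark library. Of 15 tubulin genes 10 fell, 1 rose and 4 were not called, and TUB1 (AT1G75780) stood apart from the rest, falling from 152 and 164 to 38.1 and 38.6 RPKM (-2.01 ± 0.06, adjusted p = 8.1e-11). The other 9 fallen tubulins changed by less than 2-fold. The risen gene, TUB7, was not called without the second dark library, which left 0 risen.

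The cuticle list, of 25 genes with 23 measured, had 6 risen, 9 fallen and 8 not called, but held some of the widest changes of abundant transcripts. LTP2 (AT2G38530), a lipid transfer protein of the epidermis, fell from 6164 and 6423 to 466 and 454 RPKM (log2 fold change -3.77 ± 0.09, adjusted p = 1.8e-11), and was among the 10 most abundant models in darkness. Its neighbour in family, LTP1 (AT2G38540), rose from 95.5 and 87.4 to 754 and 849 RPKM (3.12 ± 0.09, adjusted p = 1.1e-10). LTP1 and LTP2 thus exchanged rank per length, since LTP2 was far higher in darkness and LTP1 was the higher in blue light. CER1 (AT1G02205), which makes wax alkanes, fell from 74 and 81.1 to 10.2 and 10.3 RPKM (-2.8 ± 0.07, adjusted p = 2.4e-11), and the wax regulator MYB96 (AT5G62470) from 17.9 and 18.7 to 6.96 and 7.04 RPKM (-1.27 ± 0.07, adjusted p = 1.1e-08). The wax elongase gene CER6 was at 262 and 276 RPKM in darkness and 279 and 295 RPKM in blue light and not called.

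Stomata open the leaf surface to carbon dioxide. Of 19 stomatal lineage and guard cell genes 18 were measured, 11 rose, 5 fell and 2 were not called, at a median of 0.36. FAMA (AT3G24140), which turns precursors into guard cells, rose from 1.74 and 1.77 to 12.1 and 12.2 RPKM (log2 fold change 2.26 ± 0.12, adjusted p = 1.3e-08), whereas OST1 (AT4G33950), the guard cell kinase of the abscisic acid response, fell from 40.3 and 42.6 to 15.7 and 15.2 RPKM (-1.37 ± 0.06, adjusted p = 2.2e-09). The count of 5 fallen was 2 under upper-quartile scaling, limma-voom or without the second blue library, and 3 without the first dark library. Of 8 trichome genes 7 rose and ETC1 fell. GL2 (AT1G79840), which also acts in the root epidermis, rose from 4.67 and 4.7 to 9.11 and 9.31 RPKM (0.85 ± 0.08, adjusted p = 2.4e-06), and TTG1 (AT5G24520) from 15.6 and 17.7 to 24 and 24.6 RPKM (0.52 ± 0.07, adjusted p = 3.8e-05).

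Vascular markers gave a mixed picture in the phloem, near the shares of all members, and a lower level in the xylem. Of 9 phloem genes 3 rose, 3 fell and 3 were not called, and the companion cell gene PP2-A1 (AT4G19840) rose from 43.2 and 40.4 to 78.1 and 77.7 RPKM (log2 fold change 0.88 ± 0.07, adjusted p = 3.7e-07) while the sieve element gene SEOB (AT3G01680) fell from 32.7 and 31.3 to 19.5 and 19.6 RPKM (-0.68 ± 0.06, adjusted p = 8.6e-07). Of 12 xylem genes none rose, 9 fell and 3 were not called, at a median of -0.40. ACL5 (AT5G19530), a thermospermine synthase of the vessels, fell from 66.3 and 63.3 to 33 and 31.4 RPKM (-0.99 ± 0.06, adjusted p = 6.2e-08). Of 22 root markers 19 were measured, 7 rose, 8 fell and 4 were not called, which is also near the shares of all members. The 5 CASP genes, which build the Casparian strip of the endodermis, all fell, CASP5 (AT5G15290) the most, from 136 and 142 to 12.3 and 12 RPKM (-3.41 ± 0.07, adjusted p = 4.3e-12), and CASP1 (AT2G36100) from 183 and 183 to 66.4 and 60.4 RPKM (-1.52 ± 0.06, adjusted p = 1.4e-09). Of the root hair genes, COBL9 (AT5G49270) rose from 2.89 and 3.06 to 5.85 and 6.0 RPKM (0.8 ± 0.10) and LRX1 (AT1G12040) from 7.08 and 7.91 to 12.3 and 11.6 RPKM (0.61 ± 0.09), while the root hair regulators RHD6 and RSL4 were not called. All 8 flower and pollen markers stayed below the minimum level, with a summed level of 0.408 and 0.629 RPKM in darkness and 0.625 and 0.674 RPKM in blue light.

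Genes often used as references were not all steady. Of 10 such genes 7 fell, 1 rose and 2, GAPC1 and the TIP41-like locus AT4G34270, were not called, at a median of -0.21. The share called was near the 75.5% of all members, and none was called with a change of at least 2-fold. ACT8 (AT1G49240), an actin, fell from 681 and 684 to 345 and 338 RPKM (log2 fold change -1.0 ± 0.06, adjusted p = 3.6e-08), UBQ10 (AT4G05320), a polyubiquitin, from 1361 and 1423 to 891 and 901 RPKM (-0.64 ± 0.06, adjusted p = 2.9e-06), and the elongation factor locus AT5G60390 rose from 718 and 733 to 949 and 1021 RPKM (0.44 ± 0.07, adjusted p = 8.3e-05). PP2AA3 (AT1G13320), a phosphatase subunit, was at 38 and 39.8 RPKM in darkness and 33.6 and 33.1 RPKM in blue light (-0.21 ± 0.06, adjusted p = 0.0045). The YLS8 call was lost under upper-quartile scaling and limma-voom, without the second blue library (adjusted p = 0.072) and without the first dark library (adjusted p = 0.084). The AT2G28390 call was lost under both scalings and without any single library (adjusted p = 0.065 to 0.12).

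**Figure D5:**
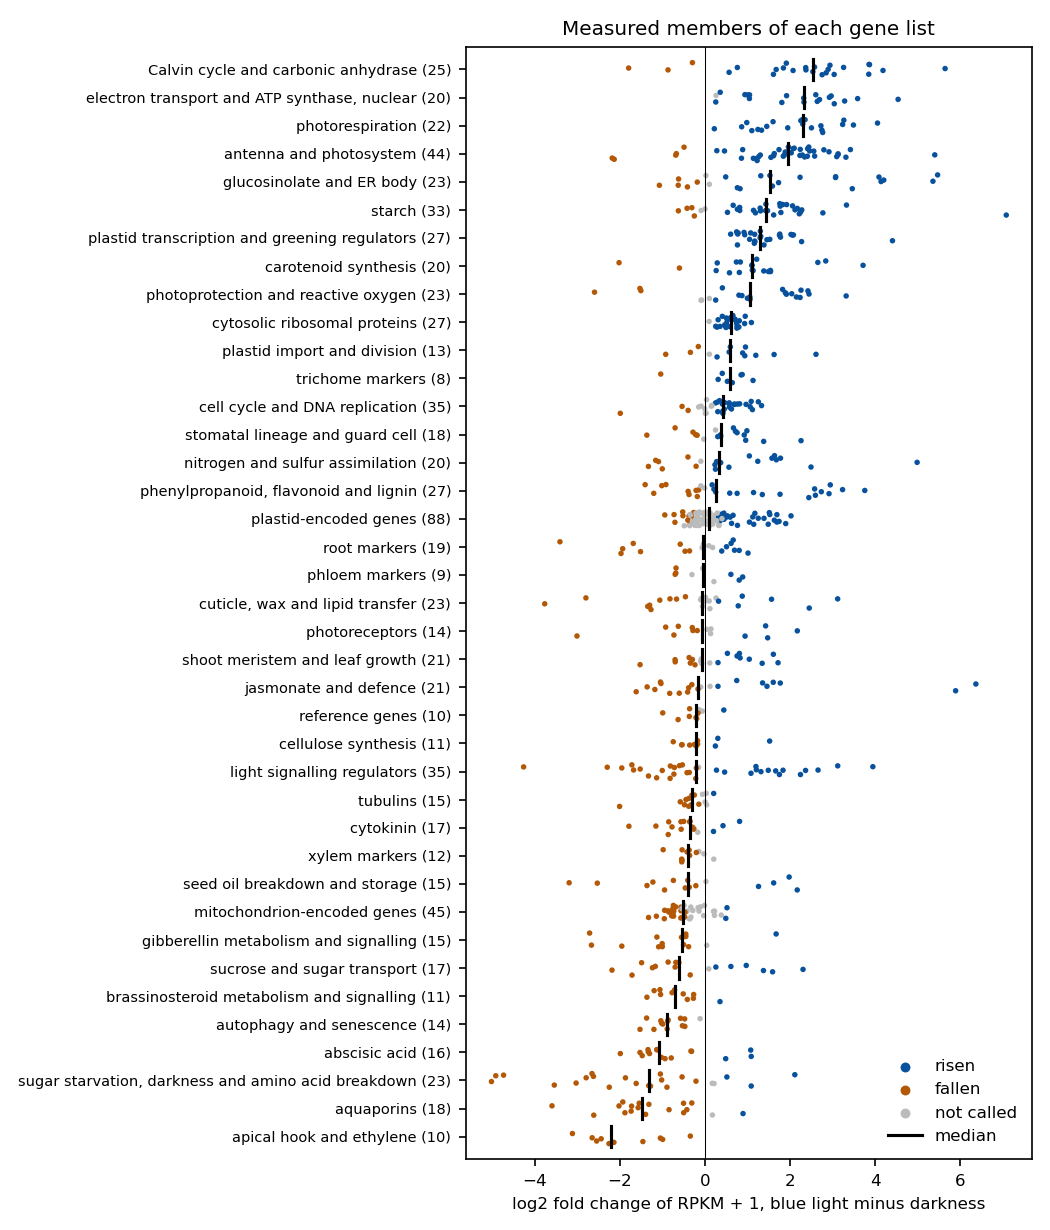
Log2 fold change of RPKM + 1 (blue light minus darkness) of every measured member of each gene list, with the number of measured members in brackets. Points are coloured by call, black bars are list medians, and lists are ordered by median from apical hook and ethylene (-2.20) to the Calvin cycle (2.53).

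Among all members with a mean of at least 5 RPKM, several of the 10 largest changes lay outside these lists. XTH6 (AT5G65730), a xyloglucan endotransglucosylase/hydrolase of the wall, rose from 0.372 and 0.399 to 86.4 and 90.3 RPKM (log2 fold change 6.01 ± 0.09, adjusted p = 9.8e-13). Its relative XTH15 (AT4G14130) fell from far higher levels, 2592 and 2725 RPKM in darkness, to 34.0 and 26.6 RPKM in blue light (-6.42 ± 0.10, adjusted p = 9.8e-13). FBA5 (AT4G26530), an aldolase, rose from 0.34 and 0.396 to 462 and 473 RPKM (8.42 ± 0.09, adjusted p = 1.1e-13). AT4G22485, a protein of the lipid transfer and seed storage superfamily, rose from 0.0788 and 0.176 to 56.5 and 77.8 RPKM (5.9 ± 0.15, adjusted p = 3.4e-11). On the other side FAR1 (AT5G22500), the fatty acyl reductase encoded at AT5G22500, fell from 279 and 279 to 7.39 and 5.12 RPKM (-5.29 ± 0.12, adjusted p = 1.1e-11), and ORP4C (AT5G57240), an oxysterol-binding protein relative, from 126 and 128 to 2.27 and 2.1 RPKM (-5.33 ± 0.05, adjusted p = 1.1e-13). FAR1 here is not the light signalling factor of the same abbreviation. GASA4 (AT5G15230), a gibberellin-regulated peptide, was among the 10 most abundant models in darkness and fell from 3226 and 2778 to 324 and 355 RPKM (-3.14 ± 0.10). TCTP (AT3G16640), a growth protein of the same rank, fell from 3457 and 3271 to 2260.5 and 2177 RPKM (-0.6 ± 0.08).

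Some genes were close to silent in one condition. Among the members 75 were under 0.1 RPKM in both dark libraries and 25 under 0.1 RPKM in both blue libraries. COR15B (AT2G42530), a cold-regulated chloroplast protein, had 0 reads in the dark libraries together and 1715 in the blue libraries, at 55.7 and 64.8 RPKM, which is at least 517-fold higher against a floor of 3 reads over the dark group. AT3G16670, of the Ole e 1 and extensin family, had 0 and 1809 reads, at least 545-fold higher by the same floor. AT1G70820, annotated as a phosphoglucomutase, had 3 reads in darkness and 4224 in blue light. In the other direction the B-box gene bbx23 (AT4G10240) had 751 reads in darkness, at 36.6 and 36.5 RPKM, and 1 read in blue light, and the F-box gene AT1G20790 had 1090 reads in darkness and 1 in blue light. RTFL13 (AT3G23635), a small peptide of the ROTUNDIFOLIA type, had 31 reads in darkness and 0 in blue light, so the dark level was at least 11.4-fold higher by a floor of 3 reads over the blue group. LATE (AT5G48890), a zinc finger factor, had 196 reads in darkness and 1 in blue light. These floors cover counting error only.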

How the data were processed

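The authors deposited 1 table of RPKM per gene model for each library, as the file headers name the unit. Alignment used Bowtie2 2.2.2 and the TAIR10 build, per the submitters' processing notes. The counter, the annotation release and the use of strand are not given in the sources used here, so overlapping and antisense genes, and paralogs that share reads, cannot be separated. Names and products were looked up in the RefSeq annotation of TAIR10.1 by locus. Of the 27416 models 26719 were found there. RPKM steps gave back whole reads, to within 0.01 reads, for all 24717 models above 0, which yielded the depth of each library and the input to limma-voom.

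The values were tested as log2 of RPKM + 1 with limma 3.58.1 under R 4.3.3, by eBayes with its trend option, in 1 fit of all 8 libraries in 4 groups that left 4 residual degrees of freedom. Models with at least 1 RPKM in at least 2 of 8 libraries (20044) were tested, p-values were Benjamini-Hochberg adjusted over all of them, and 19535 of them were members. At an unadjusted p under 0.05, 15042 members passed. The script was checked on simulated tables before use. Log2 fold changes of RPKM + 1 understate changes of low genes. With 2 libraries in each group no single library can be tested as an outlier.

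The members and gene lists were chosen with earlier results of these data known. Named genes were drawn from the 10 largest rises and falls with a mean of at least 5 RPKM and no overlap between groups. Further sources were up to 4 per direction of each list by the same conditions, all photoreceptor genes and the 10 most abundant models of each group. Up to 6 per direction under 0.1 RPKM in the other group were the last source. Every list member was eligible as a paralog or marker to set beside them, picked after its values were seen. Not every gene that met these conditions is named above. Alternatives were a pseudocount of 0.25, no filter on low values, upper-quartile scaling, limma-voom, a fit of the 4 wild-type libraries, a replicate block, and leaving out each library in turn.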

Additional observations from a re-analysis of the deposited data

How the results depend on the processing

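Under all 11 alternatives the 4 counts stayed within 1.5 times the values given: 6160 to 7471 rose, 7179 to 8374 fell, 2233 to 3154 rose at least 2-fold and 1662 to 2295 fell at least 2-fold. The fit without a filter on low values, which gave the 8374, counted all models with reads in any wild-type library and not only members. Upper-quartile scaling moved the median log2 fold change of tested genes from -0.06 to 0.01, and with it 7471 genes rose and 7179 fell. Limma-voom on the recovered reads gave 7418 and 7347, so under both the risen genes outnumbered the fallen. Leaving out 1 library in turn gave 6160 to 6285 risen and 7276 to 7442 fallen. The 2 libraries of a group share only a number with those of other groups: the correlation of the replicate differences was 0.137 between the dark and blue wild type and -0.115 to 0.034 for the other pairs, and nothing in the labels makes the numbers a batch. With a replicate block 6727 rose and 7990 fell, 2237 and 1885 of them at least 2-fold, and within the 4 wild-type libraries alone the replicate block gave 6936 and 8282. With the block in the 4 wild-type libraries the plastid-encoded models that fell numbered 22. Of 1009 list members and named genes, each alternative left 958 to 1006 on the same side of the threshold, and no called gene changed direction. Genes near the minimum level rest on few reads and have wider errors, with a median SE of 0.13 below 2 RPKM against 0.06 from 50 to 200 RPKM.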

Other observations

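Families were also counted by words in the RefSeq product, a choice made after the data had been seen, so the counts below are descriptions with no test of a family. Of 275 pentatricopeptide repeat models, many of which act on organelle RNA, 221 were measured, 162 rose and 6 fell, at a median log2 fold change of 0.45. Of 318 measured models whose product holds the words ribosomal protein 267 rose and 21 fell, at a median of 0.58. Of 49 measured WRKY transcription factor models 7 rose and 32 fell (median -0.46), and of 67 measured NAC transcription factor models 12 rose and 38 fell (median -0.28). F-box models were mostly below the minimum level, with 165 of 628 measured, of which 28 rose and 83 fell. Of 104 measured models whose product names an NBS or NB-ARC domain, the domain of many disease resistance proteins, 58 rose and 33 fell, 34 and 4 of them at least 2-fold. In each of these families the more frequent direction was the same under upper-quartile scaling and under limma-voom. Wall proteins of the arabinogalactan type were divided, 18 risen and 21 fallen of 45, near the shares of all members. AGP4 (AT5G10430) fell from 1139 and 1179 to 217 and 208 RPKM (-2.44 ± 0.07), and AGP17 (AT2G23130) rose from 3.17 and 4.05 to 27.6 and 30.6 RPKM (2.71 ± 0.10).

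Some close relatives moved in opposite directions: CA1 and CA2, LTP1 and LTP2, CAT2 and CAT3, BCH1 and BCH2, CAD4 and CAD5, LHCB4.1 and LHCB4.2, PHOT2 and PHOT1, HYH and HY5, and ASN2 and DIN6 each had the first member risen and the second fallen. These pairs were noticed after their values were seen, and no count of pairs over the genome was made.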
